A study of Homo sapiens with 10 samples.

Results

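A set of 9 genes of the p53 damage response was followed through mRNA sequencing of HEK293 cells under the conditions used to crosslink RNA to protein. The genes were CDKN1A, MDM2, BAX, BBC3, SESN1, RRM2B, PPM1D, XPC and DDB2, picked by name as known p53 targets or ultraviolet damage genes, with earlier results of these data known. A transcript with the matching name was found for 8 of the 9 genes, among 16009 named genes in all, and all 8 passed the filter on low counts. No transcript of that name was found for SESN1, a stress-induced inhibitor of growth signalling, which is not analysed here. Cells were HEK293, a human embryonic kidney line made with adenovirus DNA, and adenoviral early proteins present in these cells bind p53. Polyadenylated RNA was sequenced from 4 groups of 2 libraries, A and B. Cells given 4-thiouridine (4SU, a modified uridine that cells incorporate into the RNA they make) at 1 mM for 12 to 14 h were exposed to 365 nm light before harvest or were harvested without light. Cells without 4SU were exposed to 254 nm light or were harvested directly, called untreated here. A further library came from cells given siRNA against HuR and another from cells given siRNA against GFP, both without 4SU or light. The sources used here do not state the light dose or the time between light and harvest. The labels do not say whether A and B are separate cultures, and p-values therefore reflect the spread between these particular libraries, which may be technical.

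p53 is a transcription factor that DNA damage stabilises, and it switches on genes for arrest, repair and cell death. Its target MDM2 is a ubiquitin ligase that marks p53 for destruction, and PPM1D is a phosphatase that turns the damage kinases and p53 back off. CDKN1A encodes p21, which blocks cyclin-dependent kinases. BAX and BBC3 (PUMA) open the mitochondrial route to apoptosis, and RRM2B supplies deoxynucleotides for repair. DDB2 and XPC find bulky ultraviolet lesions for nucleotide excision repair. Light at 254 nm is absorbed by DNA bases and forms pyrimidine dimers, while 365 nm light excites 4SU.

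The promoter windows of DDB2 and MDM2 are shown because they held the closest matches to the p53 response element among 7 of the 8 genes. The promoter of RRM2B is not used here. Windows of 300 bases at each annotated start (RefSeq, GRCh38.p14) were searched, 35116 in all, for the element, a pair of decamer half-sites adjacent or 1 base apart. The element reads alike on both strands. Capitals mark the match.
DDB2, chr11:47214724-47215023, plus strand: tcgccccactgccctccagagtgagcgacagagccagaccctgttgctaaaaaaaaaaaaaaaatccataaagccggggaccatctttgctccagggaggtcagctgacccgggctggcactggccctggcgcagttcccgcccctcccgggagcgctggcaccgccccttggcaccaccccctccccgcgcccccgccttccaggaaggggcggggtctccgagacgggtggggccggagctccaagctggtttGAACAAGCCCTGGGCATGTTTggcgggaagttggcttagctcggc
MDM2, chr12:68808774-68809073, plus strand: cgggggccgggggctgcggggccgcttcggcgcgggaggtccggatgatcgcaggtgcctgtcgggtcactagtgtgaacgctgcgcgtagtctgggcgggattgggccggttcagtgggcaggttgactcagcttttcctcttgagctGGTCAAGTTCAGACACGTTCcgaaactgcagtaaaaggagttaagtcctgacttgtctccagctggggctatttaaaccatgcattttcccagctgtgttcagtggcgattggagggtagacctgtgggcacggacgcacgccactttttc
The DDB2 match had 0 mismatches and began at base 5 after the start, and 7 windows (0.0199%) held a match as good. The MDM2 match had 2 mismatches, a level reached by 469 windows (1.34%). Each gene also had an annotated start whose window held no match closer than 5 mismatches, which 85.6% of windows reached. The best XPC match had 3 mismatches, a level reached by 9.75% of windows. PPM1D and BAX had 4 mismatches (41.3% of windows), and CDKN1A and BBC3 had 5. These are letters in a window and not sites, and which start the measured transcript used is not known.

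The 8 libraries held 2238569 to 3099769 tags, and the HuR and GFP siRNA libraries 9016803 and 8688262. Crosslinked libraries stood apart from the rest before any gene was considered. Weighting transcripts by their tags, the median length was 1147 and 1431 nt with 4SU and 365 nm, against 2373 and 2850 nt with 4SU alone. It was 1534 and 1305 nt with 254 nm, against 2666 and 3029 nt in untreated cells. TMM factors, which scale each library so that most genes have the same level, were 0.3715 and 0.4997 with 4SU and 365 nm, 0.988 and 0.780 with 254 nm, and 1.55 to 1.75 in the other 4 libraries. Levels below are counts per 1000000 tags after this scaling (CPM), so a change is relative to other genes, and fewer cells and less RNA per cell cannot be told apart. The HEK293 markers IRS4 and NEFL had tags in every library, and IRS4 had 13 and 23 tags in the 4SU with 365 nm libraries, 164 and 75 in the 254 nm libraries, and between 527 and 1163 in the other 4. IRS4 levels were 14.6 and 16.1 CPM with 4SU and 365 nm, against 149.9 and 214 CPM with 4SU alone. NEFL levels were on the other side, at 304 and 392 CPM with 4SU and 365 nm, against 138 and 166 CPM with 4SU alone. They were 279 and 238 CPM with 254 nm, against 210.1 and 257 CPM in untreated cells. PAX2, NEFM and VIM were at 0 to 48 tags in these 8 libraries. Of 15 listed markers of blood, endothelium, fibroblasts, hepatocytes and epithelium, CD3E, ALB and APOA1 had no transcript of that name. ALB and APOA1 were the hepatocyte markers, so hepatocytes were not assessed. In each of these libraries 5 or 6 of the 15 had a tag, with a summed level of 221 to 443 tags per 1000000. Most of that sum was EPCAM at 426 to 1130 tags, while PTPRC, DCN, KRT5 and KRT14 were at 0 or 1 tag.

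In untreated cells, corrected for transcript length, the apoptosis gene BAX and the arrest gene CDKN1A had the highest levels, at 31.6 ± 6.60 and 28.9 ± 4.43 CPM per kilobase (SD, n = 2 each), and their libraries overlapped. MDM2 followed at 18.01 ± 9.68, with libraries at 11.2 and 24.9 CPM per kilobase that spanned the mean levels of DDB2 (12.5 ± 0.824) and PPM1D (11.5 ± 2.14). XPC at 9.85 ± 0.199, RRM2B at 5.91 ± 1.37 and BBC3 at 3.32 ± 3.26 CPM per kilobase came last. RRM2B and BBC3 overlapped, with BBC3 at 5.62 and 1.01 CPM per kilobase in libraries A and B. After 254 nm, the order of the level per kilobase was BAX (95.1 ± 19.0), CDKN1A (37.9 ± 3.32), DDB2 (37.8 ± 16.3), XPC (10.6 ± 0.797), BBC3 (7.58 ± 3.23), PPM1D (3.26 ± 0.465), MDM2 (2.85 ± 0.848) and RRM2B (0.892 ± 0.425). DDB2 thus overlapped CDKN1A after 254 nm, and PPM1D overlapped MDM2.

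**Figure D1:**
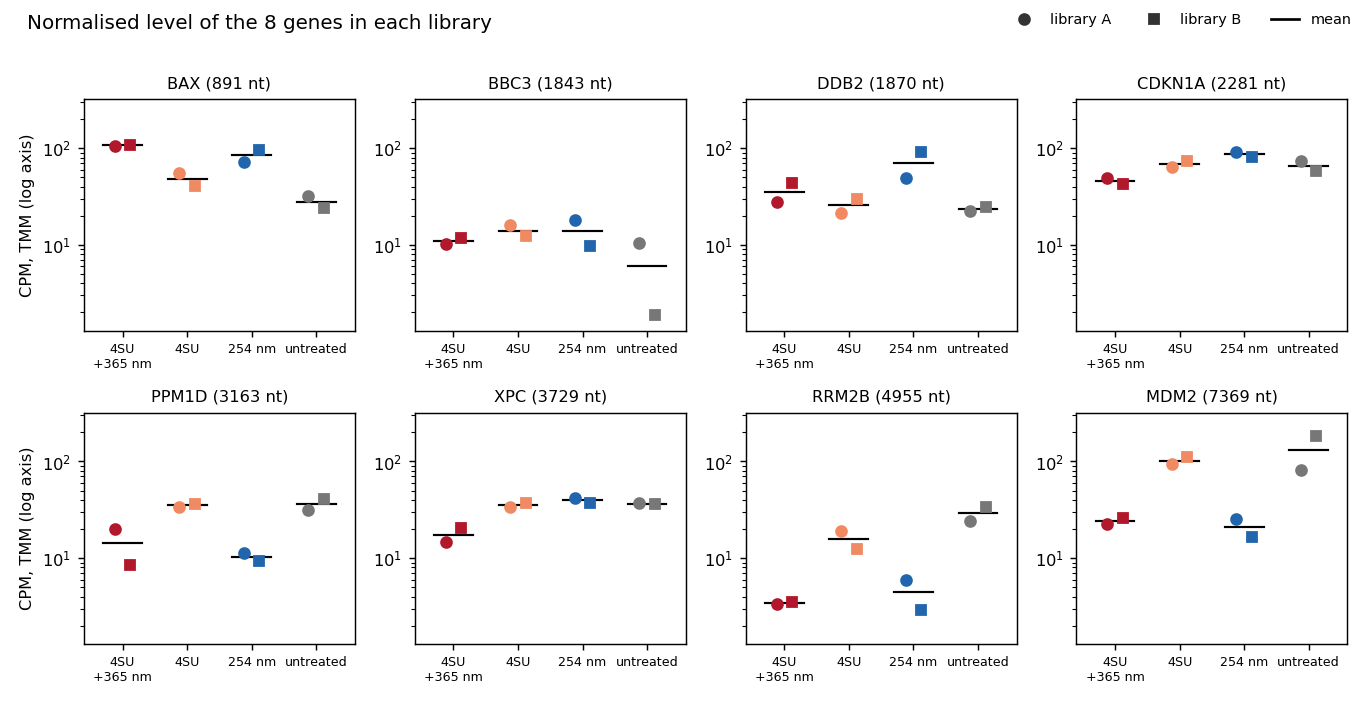
Level of each gene in each library, in CPM after TMM scaling on a log axis, by group, with circles for library A, squares for library B and a bar at the mean. MDM2, PPM1D and RRM2B sit low in both crosslinked groups, and BAX sits high in them under this scaling (with library totals BAX is lower, at -0.73, after 365 nm).

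The comparison of 254 nm with untreated cells asked how the measured levels of these mRNAs differed after ultraviolet light. Whether the light changed which RNA was recovered was not tested. DDB2 rose 3.02-fold and BAX nearly as much, by 1.58 on the log2 scale, while MDM2 fell 6.28-fold, RRM2B 6.51-fold and PPM1D 3.51-fold. BBC3 rose 2.21-fold with an adjusted p just under the threshold. CDKN1A and XPC did not pass the test. In all, 3 of the 8 genes rose and 3 fell, where 53.2% of the 13731 genes tested passed in either direction (25.2% higher and 28.0% lower). With library totals in place of TMM the median of all genes moved by -0.86 on the log2 scale, the called genes split into 1384 higher and 6462 lower in place of 3460 and 3849, and none of the 8 genes passed as higher.

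DDB2, the lesion-binding subunit of the DDB complex, had 49.1 and 92.3 CPM after 254 nm, against 22.3 and 24.5 CPM in untreated cells. Both irradiated libraries lay above both untreated ones, and the irradiated pair differed from each other by more than the untreated pair. The log2 fold change was 1.59 ± 0.36 (SE) with an edgeR adjusted p of 0.000264. It was positive under all 19 alternative settings and passed in 17 of them. With library totals it was 0.68 and did not pass, and with length and GC corrected it was 0.63 and did not pass. XPC, which detects the distorted helix, had 41.8 and 37.6 CPM after 254 nm, against 37.2 and 36.2 CPM in untreated cells. The log2 fold change was 0.11 ± 0.34 (edgeR adjusted p 0.795), and it was -0.74 with library totals.

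BAX, which forms pores in the mitochondrial membrane, had 72.7 and 96.7 CPM after 254 nm, against 32.3 and 24.0 CPM in untreated cells. The groups did not overlap, with a log2 fold change of 1.58 ± 0.33 (edgeR adjusted p 0.000129). Library totals gave 0.70, which did not pass. With length and GC corrected, void as a check for the reason given below, BAX passed as lower (-0.98, edgeR adjusted p 0.00309). BBC3, a BH3-only activator of BAX, had 18.2 and 9.77 CPM, against 10.4 and 1.86 CPM in untreated cells. These groups overlapped, and the low untreated library held 7 tags. The log2 fold change of 1.14 ± 0.50 had an edgeR adjusted p of 0.0494, and it did not pass without untreated library B (0.43, adjusted p 0.448), without library A of the 254 nm group (0.68, 0.381), or without library A (0.0589) or B (0.0583) of the 4SU with 365 nm group, which share the estimate of spread. It passed in 8 of 19 alternatives. CDKN1A had 91.8 and 81.1 CPM after 254 nm, against 73.1 and 58.8 CPM in untreated cells. Its libraries did not overlap, but the log2 fold change of 0.39 ± 0.32 missed the threshold (edgeR adjusted p 0.307) and was -0.47 with library totals.

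MDM2 had 25.4 and 16.6 CPM after 254 nm, against 82.3 and 183 CPM in untreated cells. All irradiated values were below all untreated values, although the untreated libraries themselves differed. The log2 fold change was -2.65 ± 0.38 with an edgeR adjusted p of 5.94e-07. Some MDM2 tags were split between transcripts in 7 of 10 libraries, so its values are uncertain. PPM1D had 11.4 and 9.28 CPM, against 31.7 and 41.3 CPM in untreated cells (log2 fold change -1.81 ± 0.40, edgeR adjusted p 0.000249). RRM2B had 5.91 and 2.93 CPM, from 13 and 6 tags, against 24.5 and 34.1 CPM, from 123 and 128 tags, in untreated cells (-2.70 ± 0.47, adjusted p 8.52e-06). These 3 genes were lower after 254 nm under all 19 alternative settings, and PPM1D passed in all 19. The 19 include the length and GC setting, void as a check for the reason given below, where MDM2 and RRM2B did not pass.

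The comparison of 4SU with 365 nm against 4SU alone asked how measured levels differed after the other crosslinking light. No group had 365 nm light without 4SU. BAX rose 2.26-fold (with library totals it was lower, at -0.73 on the log2 scale), and MDM2 fell 4.19-fold, RRM2B 4.49-fold, PPM1D 2.58-fold and XPC 1.99-fold. DDB2, BBC3 and CDKN1A did not pass the test. With library totals DDB2 (-1.41, edgeR adjusted p 0.00193), BBC3 (-2.22, 3.21e-05) and CDKN1A (-2.51, 2.04e-08) passed as lower, and 7 of the 8 genes were then lower. The result of 1 gene higher and 4 lower stood where 59.9% of all genes passed (26.1% higher and 33.8% lower). The scaling bore heavily on this comparison: library totals moved the median of all genes by -1.89 and split the calls into 1019 higher and 9965 lower, in place of 3588 and 4636.

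BAX had 107 and 108 CPM with 4SU and 365 nm, against 54.9 and 40.7 CPM with 4SU alone. The groups did not overlap and the log2 fold change was 1.17 ± 0.33 (edgeR adjusted p 0.00272), but it was -0.73 with library totals. Without library B of 4SU alone it was 0.97 and missed the threshold (adjusted p 0.0686). BBC3 had 10.1 and 11.9 CPM, against 15.9 and 12.2 CPM with 4SU alone, a log2 fold change of -0.33 ± 0.53. DDB2 had 28.1 and 43.3 CPM, against 21.6 and 30.0 CPM with 4SU alone. Its libraries overlapped, and the log2 fold change was 0.49 ± 0.37 (edgeR adjusted p 0.257). It became -1.41 with library totals, which passed as lower. XPC had 14.6 and 20.3 CPM, against 33.8 and 36.9 CPM with 4SU alone, a log2 fold change of -0.99 ± 0.38 (edgeR adjusted p 0.0234). That call was lost without library A (adjusted p 0.179) or library B (0.0629) of the group with light, without library A (0.0586) or library B (0.109) of the group without it, and with RLE factors (0.0932).

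CDKN1A had 49.4 and 42.6 CPM with 4SU and 365 nm, against 63.4 and 73.1 CPM with 4SU alone. The libraries did not overlap, and the log2 fold change of -0.58 ± 0.34 did not pass (edgeR adjusted p 0.134). With library totals it was -2.51 and passed. MDM2 had 22.5 and 25.9 CPM, against 93.8 and 110 CPM with 4SU alone (log2 fold change -2.07 ± 0.39, edgeR adjusted p 2.2e-05). RRM2B had 3.37 and 3.50 CPM, from 3 and 5 tags, against 19.1 and 12.4 CPM, from 67 and 66 tags, with 4SU alone (-2.17 ± 0.57, adjusted p 0.00137). PPM1D had 20.2 and 8.39 CPM, against 34.1 and 36.0 CPM with 4SU alone. Its log2 fold change was -1.37 ± 0.43 (edgeR adjusted p 0.00591), and without library B of the irradiated group it was -0.80 (0.227). These 3 genes were lower under all 19 alternative settings, as they were after 254 nm.

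**Figure D2:**
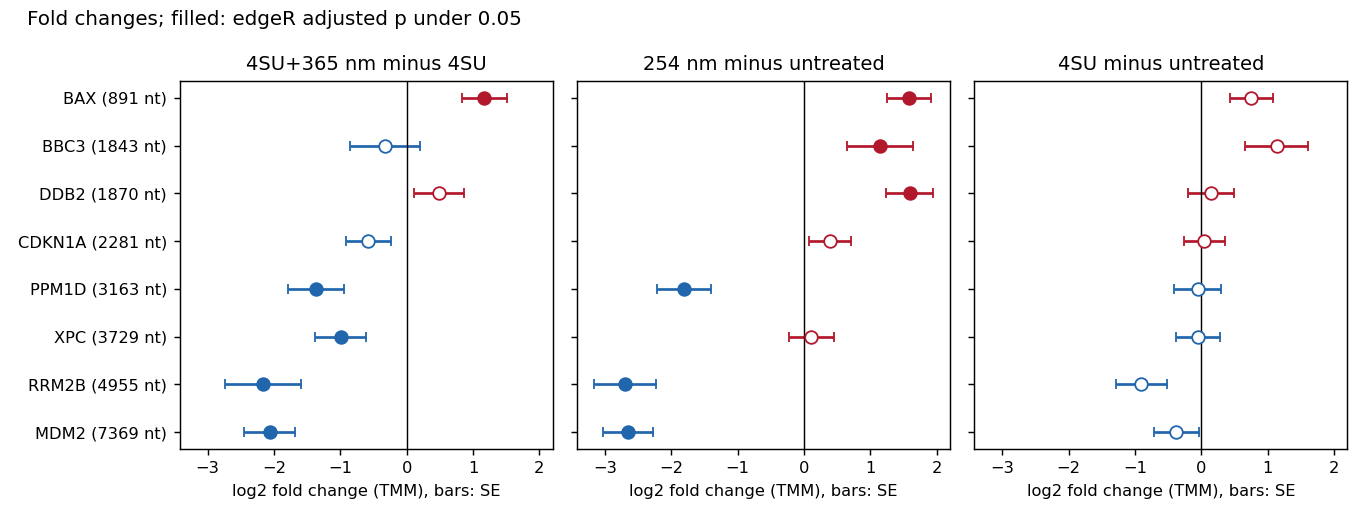
Log2 fold change of each gene with its SE in 3 comparisons, under TMM scaling, genes ordered from the shortest transcript at the top to the longest at the bottom, filled where the edgeR adjusted p is under 0.05. Values run from DDB2 at 1.59 to RRM2B at -2.70 after 254 nm, and none passes with 4SU alone.

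4SU by itself moved none of the 8 genes past the threshold, where 7.54% of all genes passed (3.85% higher and 3.69% lower). With the library letter as a block, which no label calls for, BBC3 passed as higher (1.31, edgeR adjusted p 0.0165). In edgeR 3 of the 8 had an unadjusted p under 0.05, and DESeq2 also called none of the 8, with 1 at an unadjusted p under 0.05. BAX had 54.9 and 40.7 CPM with 4SU, against 32.3 and 24.0 CPM in untreated cells, which gave a log2 fold change of 0.76 ± 0.33 (edgeR adjusted p 0.162). BBC3 had 15.9 and 12.2 CPM, against 10.4 and 1.86 CPM in untreated cells, and its log2 fold change of 1.14 ± 0.47 had an adjusted p of 0.139. RRM2B had 19.1 and 12.4 CPM, against 24.5 and 34.1 CPM in untreated cells, with -0.90 ± 0.38 (adjusted p 0.148). None of these 3 pairs of groups overlapped, and without untreated library A both BBC3 (2.86, adjusted p 0.000518) and RRM2B (-1.14, adjusted p 0.0269) passed. The other 5 genes had log2 fold changes of -0.38 to 0.15 with SEs of 0.31 to 0.35. Library totals split the calls of all genes into 432 higher and 236 lower, in place of 528 and 507.

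The whole 4SU and 365 nm procedure was also set against untreated cells, with the same libraries as above. There BAX had a log2 fold change of 1.93 ± 0.34 (edgeR adjusted p 7.42e-06) and was called higher. MDM2 (-2.44), RRM2B (-3.07), PPM1D (-1.42) and XPC (-1.05) were called lower, where 58.9% of all genes passed (26.3% higher and 32.6% lower). BAX was at 0.05 with library totals, where CDKN1A (-2.41, edgeR adjusted p 6.42e-08) and DDB2 (-1.21, 0.00844) passed as lower. With length and GC corrected, void as a check, BAX (-0.92, edgeR adjusted p 0.00249) and CDKN1A (-0.89, 0.0046) passed as lower. XPC did not pass without library A of the crosslinked group (adjusted p 0.144) or with RLE factors (0.0656), nor PPM1D without library B of it (0.189), and BBC3, at 0.81 with all libraries, passed at 2.54 without untreated library A (adjusted p 0.000845). RLE factors also brought DDB2 past the threshold at 0.87 (adjusted p 0.047). All genes called were 1047 higher and 9673 lower with library totals, 3530 and 2887 with the length trend removed, and 3609 and 4475 with TMM.

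Set directly against 254 nm, 4SU with 365 nm left CDKN1A, DDB2 and XPC lower by the test, where 27.7% of all genes passed (15.2% higher and 12.5% lower). CDKN1A had 49.4 and 42.6 CPM with 4SU and 365 nm, against 91.8 and 81.1 CPM with 254 nm (log2 fold change -0.92 ± 0.34, edgeR adjusted p 0.0395). DDB2 had 28.1 and 43.3 CPM, against 49.1 and 92.3 CPM with 254 nm (-0.96 ± 0.37, adjusted p 0.0478). XPC had 14.6 and 20.3 CPM, against 41.8 and 37.6 CPM with 254 nm (-1.16 ± 0.39, adjusted p 0.0218). The libraries of the compared groups did not overlap for any of the 3 genes. The count was 0 with RLE factors and with DESeq2, which found 2 of the 8 at an unadjusted p under 0.05. It was also 0 or 1 without any given library of the 2 groups compared or of 4SU alone. CDKN1A did not pass without any of these 6 libraries (adjusted p 0.0564 to 0.255). XPC did not pass without library A or B of either light group (0.0545 to 0.195). DDB2 did not pass without library A (0.342) or B (0.0778) of 4SU with 365 nm, library B of 254 nm (0.542) or library A or B of 4SU alone (0.052 each). Library totals moved the median of all genes by -0.98 here. All genes called were 631 higher and 5885 lower with library totals, 2499 and 1219 with RLE factors, and 2092 and 1712 with TMM. MDM2 had 0.21 ± 0.41, PPM1D 0.39 ± 0.47 and RRM2B -0.37 ± 0.68, so the 3 genes that fell with both kinds of light were not separated here.

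The test of whether the effect of 365 nm on 4SU cells differed from the effect of 254 nm passed for none of the 8 genes in edgeR, where 17.1% of all genes passed (9.99% higher and 7.09% lower). In edgeR 4 of the 8 had an unadjusted p under 0.05, and in DESeq2 none had. These 4 were BBC3 (-1.47 ± 0.72, edgeR adjusted p 0.153), DDB2 (-1.11 ± 0.51, 0.130), XPC (-1.11 ± 0.51, 0.128) and CDKN1A (-0.96 ± 0.46, 0.144), all on the side of a lower value with 365 nm. With library totals these 4 and BAX passed, at -2.53, -2.10, -2.15, -2.05 and -1.43, and the median of all genes then moved by -1.03. All genes called were 494 higher and 4459 lower with library totals, 1673 and 607 with RLE factors, and 1372 and 973 with TMM. BBC3 passed at -3.20 without untreated library A (adjusted p 0.000939). So under TMM DDB2 passed after 254 nm and not after 365 nm, but the difference between its effects was not past the threshold.

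Across the 8 genes the fold changes with light or 4SU went with transcript length, while differences between the kinds of light did not go the same way. The lengths were 891 nt for BAX, 1843 for BBC3, 1870 for DDB2, 2281 for CDKN1A, 3163 for PPM1D, 3729 for XPC, 4955 for RRM2B and 7369 for MDM2, where the median of tested genes was 2753 nt. Spearman's rho between length and log2 fold change over the 8 genes was -0.88 after 254 nm, -0.93 for 365 nm on 4SU cells and -0.93 for 4SU alone, given as a description. Over all tested genes it was -0.65, -0.45 and -0.19 in the same order. Over the 8 genes it was -0.12 for 4SU with 365 nm against 254 nm and 0.67 for the difference of effects. The genes share their libraries, so these points are not independent.

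**Figure D3:**
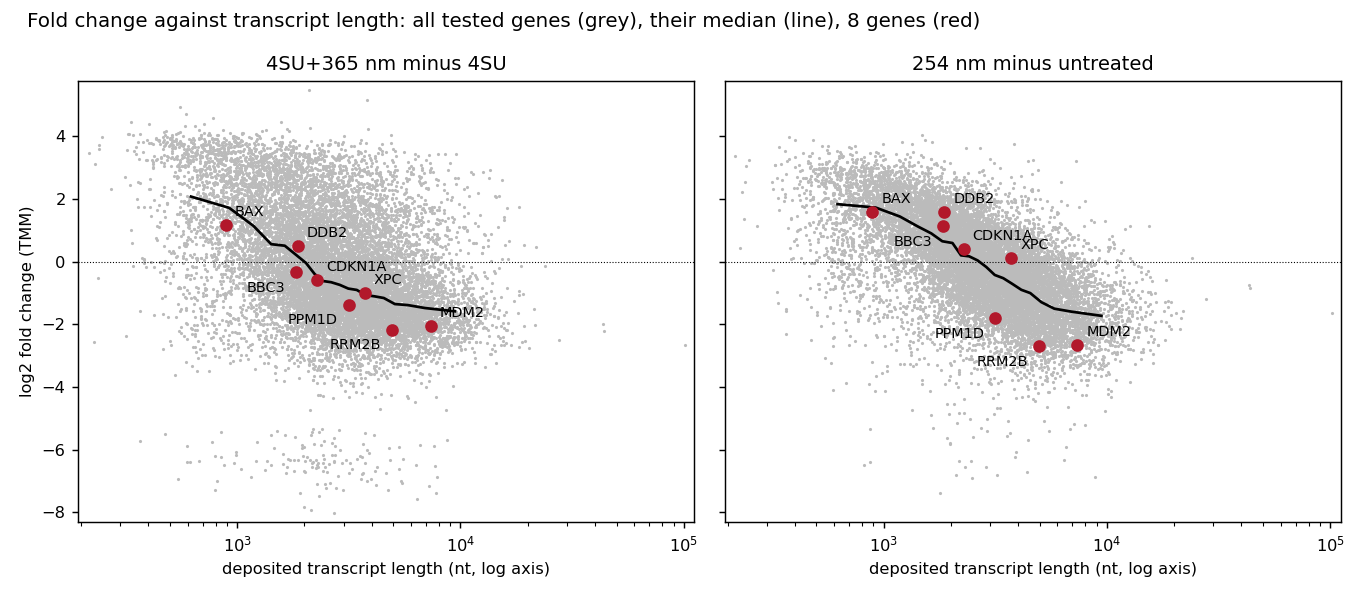
Log2 fold change against deposited transcript length (log axis) for all 13731 tested genes in grey, with their median in 20 bins of length as a line and the 8 genes in red. The line falls with length in both panels, and after 254 nm DDB2 and XPC lie above it while PPM1D, RRM2B and MDM2 lie below it.

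Set against genes of like length, the members separated differently after 254 nm. The log2 fold change of DDB2 minus the median of the 685 genes in its length bin was 0.94, and the same difference was 0.82 for XPC, 0.49 for BBC3 and 0.19 for CDKN1A. For BAX, at 1.58, it was -0.14. It was -1.39 for PPM1D, -1.41 for RRM2B and -1.05 for MDM2. With the length trend of each library removed in the fit, DDB2 (0.99, edgeR adjusted p 0.0219) and XPC (0.76, 0.0465) passed as higher and PPM1D (-1.46, 0.0032), RRM2B (-1.64, 0.00463) and MDM2 (-1.14, 0.00686) as lower. BAX then had 0.09 (adjusted p 0.832) and BBC3 0.55 (0.370). In that setting 2614 of all 13731 genes were called higher and 2292 lower.

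For 365 nm on 4SU cells the same correction left only MDM2 past the threshold, at -0.89 (edgeR adjusted p 0.0307). RRM2B had -1.22 (0.0733), PPM1D -0.79 (0.0989), XPC -0.25 (0.572), DDB2 0.24 (0.593) and BAX -0.34 (0.321). The log2 fold change of XPC minus the median of genes of its length was 0.07, so its lower level after 365 nm was close to what genes of that length showed. The calls over all genes were then 3599 higher and 2863 lower. With GC content also corrected, void as a check, MDM2 did not pass (-0.62, edgeR adjusted p 0.0635). BAX (-1.29, 3.6e-05), BBC3 (-1.38, 0.0048) and CDKN1A (-0.68, 0.0245) passed as lower in that setting.

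**Figure D4:**
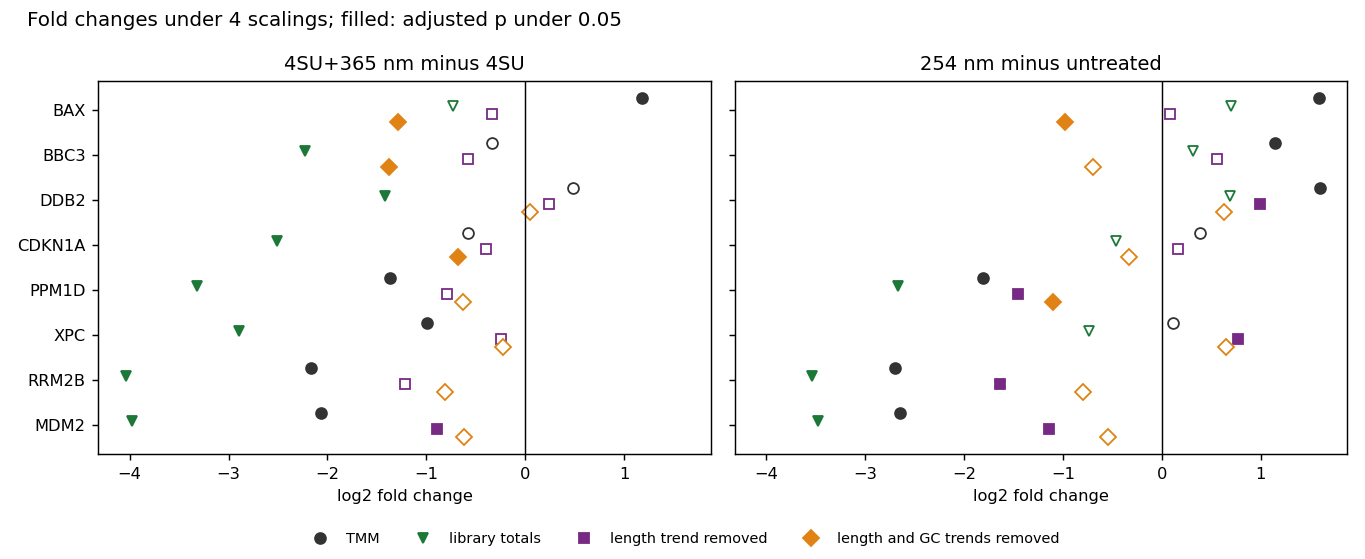
Log2 fold change of each gene under TMM, library totals, removal of the length trend and removal of length and GC trends, in 2 comparisons, filled where the adjusted p is under 0.05. PPM1D, RRM2B and MDM2 stay left of 0 under TMM, library totals and the length trend, DDB2 stays right of 0 after 254 nm, and BAX crosses 0. The length and GC setting is void as a check, since GC content was known for 79.9% of tested genes, under a minimum of 80%, though for all 8 genes.

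Other p53 targets, 28 of 32 listed genes tested, moved in both directions. After 254 nm 5 rose and 9 fell, with a median log2 fold change of -0.42 beside -0.14 for all genes, where 25.2% of all genes were called higher and 28.0% lower. Library totals gave 4 higher and 15 lower, where all genes gave 1384 and 6462 of 13731. Removal of the length trend gave 7 and 6, where all genes gave 2614 and 2292. The median was then 0.10 beside -0.005 for all genes, so its place below all genes was not kept. The mitochondrial reductase gene FDXR had 143 and 125 CPM after 254 nm, against 45.8 and 22.1 CPM in untreated cells (1.97 ± 0.35, edgeR adjusted p 1.11e-05). PHLDA3, an AKT inhibitor, had 40.9 and 43.5 CPM, against 13.5 and 3.73 CPM in untreated cells (2.25), and the ribosomal protein relative RPS27L had a log2 fold change of 1.94. FDXR, PHLDA3 and RPS27L also passed with library totals, at 1.11, 1.38 and 1.04. With the length trend removed FDXR (1.46) and PHLDA3 (1.33) passed, while RPS27L did not (0.50, edgeR adjusted p 0.226). With GC content also corrected, void as a check, FDXR (0.47, adjusted p 0.143), PHLDA3 (0.60, 0.163) and RPS27L (0.67, 0.0605) did not pass. The apoptosome gene APAF1, with split tags, fell (-2.61), as did SUSD6 (-2.96), and with the length trend removed SUSD6 passed (-1.79) and APAF1 did not (-1.13, adjusted p 0.0637). For 365 nm on 4SU cells 7 rose and 11 fell, with a median of -0.94 beside -0.50 for all genes, where 26.1% of all genes were called higher and 33.8% lower. Library totals gave 1 higher and 20 lower, where all genes gave 1019 and 9965 of 13731. Removal of the length trend gave 8 and 8, where all genes gave 3599 and 2863, with a median of -0.32 beside -0.21. RLE factors gave 7 and 7, as did DESeq2. RPS27L had 302 and 422 CPM with light, against 54.6 and 32.6 CPM with 4SU alone (3.06 ± 0.39, edgeR adjusted p 1.61e-08), and it passed with library totals at 1.19. FDXR had 2.31 there, which did not pass with library totals (0.40). With 4SU alone 1 rose and 1 fell in edgeR, where 3.85% of all genes were called higher and 3.69% lower. DESeq2 called 1 higher and 0 lower. SESN2, a relative of SESN1, had 252 and 185 CPM with 4SU, against 78.9 and 59.4 CPM in untreated cells (1.66 ± 0.34, edgeR adjusted p 0.00157), and the antiproliferative gene BTG2 fell by 1.24 on the log2 scale, a call lost without library A of 4SU alone (adjusted p 0.394) and with library totals.

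Of 15 regulators of p53 all were tested. After 254 nm 1 rose and 9 fell, with a median of -1.42 beside -0.14 for all genes (25.2% called higher and 28.0% lower). Library totals gave 0 higher and 13 lower, where all genes gave 1384 and 6462 of 13731. MDM4, the MDM2 relative that also binds p53, had 10.0 and 6.84 CPM after 254 nm, against 60.2 and 60.7 CPM in untreated cells (-2.83 ± 0.38, edgeR adjusted p 3.23e-07). Its tags were split in 7 libraries. The deacetylase gene SIRT1 had -2.77 and the kinase gene HIPK2 -2.55, while WRAP53 was higher at 1.24 (0.37 with library totals, which did not pass). WRAP53 overlaps another gene on the opposite strand, and these counts may not separate them. For 365 nm on 4SU cells edgeR called 0 higher, also at an unadjusted p under 0.05, and 7 lower, with a median of -1.16 beside -0.50 for all genes (26.1% higher and 33.8% lower). Library totals gave 0 higher and 15 lower, where all genes gave 1019 and 9965 of 13731. DESeq2 called 0 higher and 6 lower. Among the 7 were MDM4 (-2.78), the acetyltransferase gene EP300 (-2.42, with split tags) and HIPK2 (-2.06). MDM4, HIPK2 and EP300 have deposited lengths of 10073, 15245 and 8761 nt. With the length trend removed, 1 rose and 2 fell after 254 nm, and 1 rose and 3 fell after 365 nm. All genes called in that setting were 2614 higher and 2292 lower after 254 nm, and 3599 and 2863 after 365 nm. The medians were then -0.44 after 254 nm (all genes -0.005) and -0.24 after 365 nm (all genes -0.21). HIPK2 then did not pass after 254 nm (-0.75, edgeR adjusted p 0.112) or after 365 nm (-0.78, 0.0823). With 4SU alone 3 regulators fell on the log2 scale, SIRT1 by 1.51, COP1 by 1.39 and USP7 by 1.00. Of all genes 3.85% were called higher and 3.69% lower. With library totals COP1 (-1.34, edgeR adjusted p 0.0587) and USP7 (-0.94, 0.165) did not pass, and DESeq2 called 1 regulator lower. None rose in edgeR, where 2 had an unadjusted p under 0.05, or in DESeq2. SIRT1 (adjusted p 0.114) and USP7 (0.527) did not pass without library A of 4SU alone, nor COP1 without untreated library B (0.268).

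Of 29 other excision repair factors 25 were tested. After 254 nm 9 rose and 6 fell, with a median of 0.39 beside -0.14 for all genes (25.2% called higher and 28.0% lower). With the length trend removed 4 rose and 1 fell, where 2614 of all 13731 genes were called higher and 2292 lower. The median was then -0.16 beside -0.005 for all genes, so its place above all genes was not kept. DESeq2 called 6 of the list higher and 5 lower. The endonuclease subunit gene ERCC1 had 129 and 162 CPM, against 70.7 and 34.3 CPM in untreated cells (1.46 ± 0.34, edgeR adjusted p 0.00047), although ERCC1 overlaps a gene on the opposite strand that these counts may not separate, while its partner ERCC4, with split tags, fell by 2.17 on the log2 scale. With the length trend removed ERCC4 was at -0.78 and did not pass (adjusted p 0.165). None of the list passed as higher with library totals after 254 nm, and 12 then passed as lower. That setting called 1384 of all 13731 genes higher and 6462 lower, so the 12 lower are near the share of all genes. For 365 nm on 4SU cells 6 rose and 5 fell, with a median of -0.03 beside -0.50 for all genes (26.1% higher and 33.8% lower). Library totals gave 3 higher and 18 lower, where all genes gave 1019 and 9965 of 13731. Removal of the length trend gave 7 and 3, where all genes gave 3599 and 2863, with a median of 0.12 beside -0.21. RLE factors gave 9 and 2, and DESeq2 8 and 0. DDB1, the partner of DDB2, had 1379 and 1265 CPM with light, against 96.7 and 122 CPM with 4SU alone (3.59 ± 0.40, edgeR adjusted p 1.6e-09, and 1.65 with library totals). It had 154 and 137 CPM after 254 nm, against 189 and 201 CPM in untreated cells. DDB1 tags were split in 3 libraries. The damage sensor subunit gene CETN2, which binds XPC, had 317 and 247 CPM with 4SU and 365 nm, against 42.4 and 32.0 CPM with 4SU alone (2.92). XPC itself was lower in the same comparison, with the exceptions given above. GTF2H5, with split tags, had 2.86, while ERCC6 (-1.78, with split tags), ERCC4 (-1.48) and ERCC5 (-1.15) fell in edgeR. DESeq2 called none of the list lower, and with RLE factors ERCC5 did not pass (-0.90, edgeR adjusted p 0.0768). ERCC6 and ERCC4 did not pass without library A of the irradiated group (adjusted p 0.0892 and 0.0959), nor ERCC5 without library B of 4SU alone (0.157). With the length trend removed none of the 3 passed (ERCC6 -0.62, adjusted p 0.386, ERCC4 -0.34, 0.574, ERCC5 -0.33, 0.535). With 4SU alone CUL4B fell by 1.14 on the log2 scale, a call lost without library A of 4SU alone (adjusted p 0.259). None rose in edgeR, where 1 had an unadjusted p under 0.05, or in DESeq2. Of all genes 3.85% were called higher and 3.69% lower. With library totals 0 of the list were called higher and 0 lower.

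Among 6865 well expressed genes, those whose profile over the 8 libraries was most like that of CDKN1A were POLR3E, GTF2H4 and SDC1, with root mean square differences of 0.125, 0.136 and 0.150 in centred log2 CPM. The nearest of the other 7 genes was XPC at 0.277. For MDM2 they were SUZ12, DDX17 and MED1 at 0.174, 0.175 and 0.187, and the nearest member was RRM2B at 0.389. SUZ12, DDX17 and MED1 have deposited lengths of 4477, 4811 and 8148 nt.

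Cells given siRNA against HuR, an RNA-binding protein encoded by ELAVL1, were compared with cells given siRNA against GFP. There is 1 library of each, so there is no test, and intervals cover counting error only. ELAVL1 itself had 638 tags with HuR siRNA and 1905 with GFP siRNA, a log2 ratio of -1.53. None of the 8 genes lay beyond 2-fold, as 10.8% of 17798 genes did. BAX had 68.7 CPM with HuR siRNA and 43.0 CPM with GFP siRNA, a log2 ratio of 0.67 (95% exact interval 0.49 to 0.86). BBC3 had 17.6 and 11.2 CPM in that order (0.64, 0.28 to 1.03). RRM2B had 20.5 CPM with HuR siRNA and 36.9 CPM with GFP siRNA (-0.84, -1.12 to -0.58). CDKN1A had 53.2 and 73.9 CPM (-0.47, -0.65 to -0.30). PPM1D at -0.50, XPC at -0.46 and MDM2 at -0.11 also had intervals below 0, and that of DDB2 (0.19) spanned 0. Intervals off 0 were common, with 4864 of all 17798 genes above 0 and 5039 below. MDM2 was -0.21 with library totals, outside its interval. The rank order again went with length, with a rho of -0.69 over the 8 genes and -0.30 over all. Of the listed genes, ASCC3 (-1.49), ATM (-1.22) and SPATA18 (-1.55) were more than 2-fold lower and SESN2 (1.41), PLK3 (1.25), GDF15 (1.18, from 20 and 8 tags) and XAB2 (1.08) more than 2-fold higher with HuR siRNA.

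**Figure D5:**
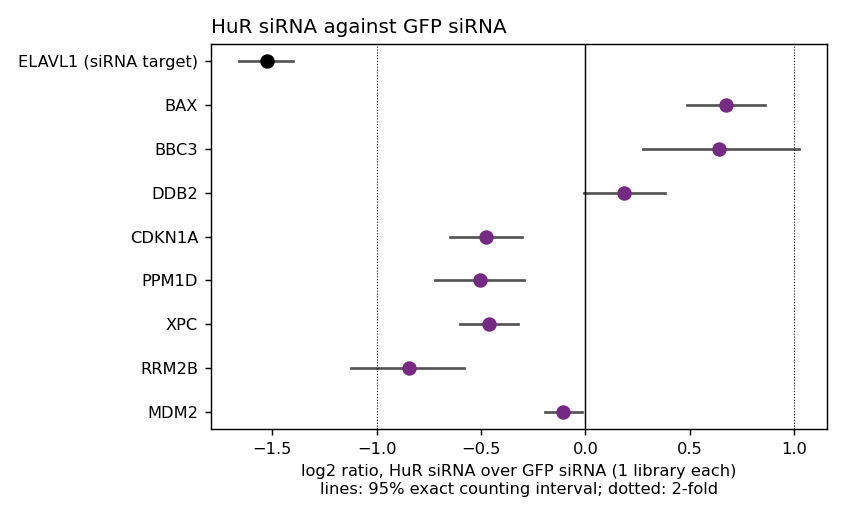
Log2 ratio of HuR siRNA over GFP siRNA for ELAVL1 and the 8 genes, 1 library each, with 95% exact counting intervals as lines and 2-fold as dotted lines. ELAVL1 lies at -1.53, BAX and BBC3 lie above 0, and RRM2B is the lowest of the 8 at -0.84.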

How the data were processed

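Polyadenylated RNA from HEK293 cells was sequenced in 10 libraries. The deposited files give expected counts of tags per transcript, which sum to the total in the file headers and hold fractions where a tag was split between transcripts, together with transcript length. An expression signal per transcript, also deposited by the authors per the file headers, was not used. Neither labels nor headers name the aligner, genome build or annotation. Accessions were matched to gene names through the reference tables (16009 named genes), transcripts of a gene were summed, and values were rounded. Genes were tested with the quasi-likelihood test of edgeR 4.0.16 in R 4.3.3 (TMM factors, filterByExpr, 13731 genes, all 4 groups fitted together, two-sided, Benjamini-Hochberg adjusted p under 0.05), which was checked on simulated data. CPM are counts per 1000000 tags of the scaled library. A count of 3 tags was 0.968 to 1.34 in the 8 libraries, and 0.333 and 0.345 in the HuR and GFP siRNA libraries, per 1000000 tags of a library's total. Intervals and this floor cover counting error only.

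Alternatives were other scalings (RLE, upper quartile and library totals), filters (none, mean of at least 5 CPM), DESeq2 1.42.0, the compared groups alone, a block for the library letter, removal of each library's trend on length or on length and GC content, unsummed transcripts, a threshold of 0.01, and each library left out. The 19 alternatives counted for a gene are these without the threshold of 0.01, and they include the length and GC setting. The 9 genes and the pathway lists, picked by textbook role, were chosen with earlier results of these data known. From each list the text names up to 3 genes past the threshold with the largest increases and up to 3 with the largest decreases, and some of these are left out. For CDKN1A and MDM2 it names the 3 genes of most similar profile among those above the median level. The siRNA pair has 1 library each and no test. Its log2 ratios use a prior count of 2. Some marker genes are not reported here.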

Additional observations from a re-analysis of the deposited data

Results flagged for a closer look

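Effects of 365 nm on 4SU cells and of 254 nm differed past the threshold in edgeR for 13 of the 68 pathway list genes tested, which is 19.1%, near the 17.1% of all genes (9.99% higher and 7.09% lower). None of the 13 is among the 8 genes. DDB1 had the largest difference, with a log2 value of 4.01 ± 0.53 (edgeR adjusted p 5.2e-07) and 2.92 with library totals, which also passed. Its level was 1379 and 1265 CPM with 4SU and 365 nm, against 96.7 and 122 CPM with 4SU alone, and 154 and 137 CPM with 254 nm, against 189 and 201 CPM in untreated cells. EI24 was at 2.78, CCNG1 at 2.30, PERP at 2.26, CETN2 at 2.18, CUL4B at 2.06, TOPBP1 at 1.95 and RPA1 at 1.45. With library totals EI24 passed at 1.73, while CCNG1, PERP, CETN2, CUL4B and TOPBP1 did not pass. On the other side SESN2 was at -2.34, CDK7 at -1.96, TRIAP1 at -1.91, PHLDA3 at -1.74 and RPA2 at -1.69. SESN2 had 82.0 and 41.3 CPM with 4SU and 365 nm, against 252 and 185 CPM with 4SU alone, and 98.1 and 96.2 CPM with 254 nm, against 78.9 and 59.4 CPM in untreated cells. The differences of TRIAP1 (adjusted p 0.0681), PHLDA3 (0.141) and CDK7 (0.101) did not pass without library A of the 4SU with 365 nm group. That of RPA2 (0.104) did not pass without library A of 4SU alone, and that of TOPBP1 (0.0545) did not pass without untreated library B.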

How the results depend on the processing

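Under the 12 settings other than leaving out a library, 500 single-gene values kept their direction and side of the threshold (siRNA ratios, their counting interval), 53 lost the call, 15 gained it, 30 took the other sign and 1 siRNA ratio moved. Of the counts, 184 stayed within 1.5 times and 35 did not. The counts of all genes called with 4SU alone (1035) were 668 with library totals, 474 with DESeq2, 685 with the compared groups alone, 1706 with length and GC corrected and 369 at an adjusted p under 0.01. For 365 nm on 4SU cells the 1 gene higher became 0 with library totals, with length corrected and with length and GC corrected, and the 4 lower became 7 with library totals and 1 with length corrected. For 254 nm the 3 higher became 0 with library totals and with length and GC corrected. For 4SU with 365 nm against untreated cells the 1 higher became 2 with RLE factors and 0 with library totals and both corrections, and the 4 lower became 2 with both corrections. For 4SU with 365 nm against 254 nm the 3 lower became 0 with RLE factors, DESeq2 or a threshold of 0.01, and 1 with upper-quartile factors, no expression filter and both corrections. The all-gene count there (3804) was 6516 with library totals and 2218 at 0.01. For the difference of effects the 0 lower became 5 with library totals, and the all-gene count (2345) was 4953 with library totals and 1135 at 0.01. With length and GC corrected, the all-gene counts were 5465 in place of 8224 (365 nm), 2321 in place of 7309 (254 nm) and 4925 in place of 8084 (4SU with 365 nm). GC content was known for all 8 genes, but for 79.9% of tested genes, under the minimum of 80%. By that minimum every value with length and GC corrected is void as a check, and fewer genes were tested.

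Signs that changed were as follows, as log2 fold changes. With 4SU alone, PPM1D was 0.02 and XPC 0.01 with upper-quartile factors, CDKN1A was -0.05 with length corrected, and with length and GC corrected CDKN1A was -0.21, MDM2 0.15, PPM1D 0.14 and DDB2 -0.03. For 365 nm on 4SU cells, BAX was -0.73 and DDB2 -1.41 with library totals, and BAX was -0.34 with length and -1.29 with length and GC corrected. For 254 nm, XPC was -0.04 with upper-quartile factors and -0.74 with library totals, CDKN1A was -0.47 with library totals, and CDKN1A was -0.33, BAX -0.98 and BBC3 -0.69 with length and GC corrected. For 4SU with 365 nm against untreated cells, BBC3 was -1.05 and DDB2 -1.21 with library totals, and BAX -0.92 and BBC3 -0.67 with length and GC corrected. Against 254 nm, MDM2 was -0.82, BAX -0.65 and PPM1D -0.66 with library totals, and BBC3 0.02 with length and GC corrected. For the difference of effects, MDM2 was -0.50, RRM2B -0.49 and PPM1D -0.65 with library totals, and MDM2 -0.08 and RRM2B -0.02 with length and GC corrected. In the siRNA pair MDM2 was -0.21 with library totals. The causes were not tested.

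Leaving out each library in turn gave 238 to 2687 genes called with 4SU alone, 5223 to 8925 for 365 nm, 2004 to 4569 for 4SU with 365 nm against 254 nm and 1104 to 3516 for the difference of effects. Of the 8 genes, 0 to 1 were higher and 0 to 1 lower with 4SU alone, 0 to 1 higher and 2 to 4 lower for 365 nm, 1 to 2 higher for 4SU with 365 nm against untreated cells, 0 to 3 lower against 254 nm and 0 to 1 lower for the difference of effects. With 4SU alone the log2 fold change ran from -0.11 to 0.20 for CDKN1A, -0.12 to 0.34 for DDB2, -0.85 to 0.29 for MDM2 and -0.25 to 0.13 for PPM1D. Against 254 nm it ran from -0.71 to 0.19 for BBC3, -0.07 to 0.55 for MDM2, -0.29 to 0.95 for PPM1D and -0.77 to 0.23 for RRM2B, and for the difference of effects from -0.09 to 1.06 for MDM2 and -0.22 to 1.02 for PPM1D. Where a group was left with 1 library, it was assumed to vary like the others. No label says that the letters A and B mark a shared culture or day, so the libraries were not treated as paired. B minus A correlated at 0.149 between 4SU with 365 nm and 4SU alone, 0.346 between 4SU alone and untreated, 0.127 between 254 nm and untreated, and -0.0807 to 0.0495 between the other groups. With the letter as a replicate block, 4SU alone gave 1 gene higher (BBC3, 1.31, edgeR adjusted p 0.0165) and 1693 genes called. Low tag numbers limit RRM2B, with 3 and 5 tags after 4SU with 365 nm, and BBC3, with 7 tags in untreated library B.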
